A study of Mus musculus with 2 samples.

Results

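The neurotrophins Bdnf and Ntf3, their receptors Ntrk2 and Ntrk3, the low-affinity receptor gene Ngfr, the sorting receptor gene Sort1 and the secretory granule gene Vgf were described in mouse cerebral cortex. They are 7 of the 55536 genes in the deposited gene tables. They were chosen by name rather than by a cut on their values, though with earlier results of these data known. All 7 were detected, with a level of at least 1 TPM (a level corrected for transcript length and for the depth of the library) in each library.

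Total RNA was sequenced from the left cerebral cortex of 2 adult male mice, aged 8 to 10 months, of the strain labelled 5xFAD/CAST, a cross of 5xFAD with CAST. The 5xFAD line carries human transgenes for mutant amyloid precursor protein and presenilin under the neuronal Thy1 promoter. The CAST strain was derived from wild mice of another subspecies. Both animals belonged to that single group, as biological replicates 1 and 2, with 300 ng of input RNA for each. Mice free of the transgenes were not analysed here, so the values describe this cortex alone, and no p-value was computed.

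Neurotrophins are small secreted proteins that keep neurons alive and tune synapses. Each binds a preferred tyrosine kinase receptor of the Trk family (BDNF binds TrkB, encoded by Ntrk2, and NT-3 binds TrkC, encoded by Ntrk3), while the receptor p75, encoded by Ngfr, binds all of them. Both Ntrk2 and Ntrk3 also make truncated receptors that keep the ligand-binding and membrane-spanning parts and lack the kinase, and in the brain the truncated TrkB called T1 is the main form of astrocytes.

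The coding sequence around the point where the receptor forms part shows how they differ. In the lines below, for Ntrk2 on chromosome 13 (plus strand, mm10), the last 30 shared coding bases are in lower case and the bases that belong to the named form are in capitals, up to and including the stop codon for the truncated forms. Sequences are those of the reference transcripts of annotation M21, and the full-length line shows only the first 60 bases of its own.
Ntrk2-201, full-length, chr13:58985802-58985861: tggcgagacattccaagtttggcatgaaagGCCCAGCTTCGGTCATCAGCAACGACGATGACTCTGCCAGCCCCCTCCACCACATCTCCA
Ntrk2-202 and Ntrk2-204, truncated T1, chr13:58932023-58932060: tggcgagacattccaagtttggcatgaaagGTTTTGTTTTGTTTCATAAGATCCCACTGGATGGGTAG
Ntrk2-205, truncated, chr13:58878339-58878424: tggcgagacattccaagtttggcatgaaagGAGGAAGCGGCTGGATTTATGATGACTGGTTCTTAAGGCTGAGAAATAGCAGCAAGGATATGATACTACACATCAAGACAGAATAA
Ntrk2-208, truncated, chr13:58887192-58887199: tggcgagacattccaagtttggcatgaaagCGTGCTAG

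All 4 lines share the same 30 bases and part at the same junction. Beyond it, the full-length form ran on for 356 codons, which hold the kinase, the T1 form for 11 codons, Ntrk2-205 for 27 codons and Ntrk2-208 for 1 codon before the stop.

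For Ntrk3 on chromosome 7 (minus strand, mm10), capitals again mark the bases of the named form after the junction. The tail of the truncated form is spliced from 2 exons, so its coordinates span an intron. It adds 83 codons, where the full-length form runs on for 296 codons.
Ntrk3-201, full-length, chr7:78260355-78260414: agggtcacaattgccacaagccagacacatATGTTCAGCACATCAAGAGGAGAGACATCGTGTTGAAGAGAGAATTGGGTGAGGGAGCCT
Ntrk3-202, truncated, chr7:78302629-78304426: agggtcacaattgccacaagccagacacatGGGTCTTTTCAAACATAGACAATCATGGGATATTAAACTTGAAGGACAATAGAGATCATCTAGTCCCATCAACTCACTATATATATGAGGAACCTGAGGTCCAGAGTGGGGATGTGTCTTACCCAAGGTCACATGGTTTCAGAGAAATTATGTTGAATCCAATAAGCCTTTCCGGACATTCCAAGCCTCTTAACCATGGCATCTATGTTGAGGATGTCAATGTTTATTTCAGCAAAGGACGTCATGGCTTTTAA

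Full-length TrkC also comes with inserts in its kinase, which are known to alter its signalling. In the next lines, capitals mark the bases that the transcript adds to the coding sequence of Ntrk3-201. The insert of 14 codons lies in 1 exon, and the insert of 39 codons is that exon joined to a further one, so its coordinates span an intron.
Ntrk3-205, insert of 42 bases, chr7:78204103-78204144: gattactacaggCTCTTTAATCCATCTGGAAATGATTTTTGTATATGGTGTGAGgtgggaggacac
Ntrk3-206, insert of 117 bases, chr7:78204103-78229561: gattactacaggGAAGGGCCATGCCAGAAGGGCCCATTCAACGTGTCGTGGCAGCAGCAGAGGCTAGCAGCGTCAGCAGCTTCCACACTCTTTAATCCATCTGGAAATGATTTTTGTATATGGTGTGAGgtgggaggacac

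Bdnf differs from its receptors in that its forms differ mainly ahead of the protein. The gene has several first exons, each with its own promoter and each spliced to a common exon that holds the coding sequence. Promoter IV is the one best known for its response to neuronal activity, through calcium and the factor CREB. In the lines below are the 250 bases ahead of the start of first exons I, IV and V on chromosome 2 (plus strand, from the RefSeq promoter table of GRCm38.p6). Exons I and IV were in use here and exon V was listed at 0. Capitals mark the letters CGTCA, the core of a CREB site, searched on both strands.
Bdnf first exon I, chr2:109674450-109674699: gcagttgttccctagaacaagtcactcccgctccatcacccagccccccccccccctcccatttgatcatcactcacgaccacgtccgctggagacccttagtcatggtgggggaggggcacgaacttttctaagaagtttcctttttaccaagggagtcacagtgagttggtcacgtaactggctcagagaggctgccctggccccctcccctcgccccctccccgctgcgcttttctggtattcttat
Bdnf first exon IV, chr2:109692186-109692435: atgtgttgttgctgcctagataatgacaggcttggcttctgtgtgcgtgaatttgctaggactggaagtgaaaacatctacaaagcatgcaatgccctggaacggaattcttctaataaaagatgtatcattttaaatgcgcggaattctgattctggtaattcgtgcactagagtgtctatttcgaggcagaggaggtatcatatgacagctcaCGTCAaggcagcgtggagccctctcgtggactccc
Bdnf first exon V, chr2:109692777-109693026: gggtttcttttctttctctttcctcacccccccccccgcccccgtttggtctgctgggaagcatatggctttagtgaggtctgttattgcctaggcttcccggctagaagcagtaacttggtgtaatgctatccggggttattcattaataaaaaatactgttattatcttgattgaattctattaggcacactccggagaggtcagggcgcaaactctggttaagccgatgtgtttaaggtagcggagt

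The letters CGTCA stood once ahead of exon IV, starting 35 bases before its start, and in neither of the other 2 windows. The full palindrome TGACGTCA, which contains CGTCA, stood in none of the 3. Of 32851 promoters in the same table, taken over the same length, 17.8% held CGTCA and 1.55% held TGACGTCA, so a match of the shorter letters is common and is given as a description.

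The 2 libraries held 33925198 and 32380299 reads on genes in replicates 1 and 2. Cortical markers were present: the excitatory neuron markers summed to 2085 TPM in replicate 1 and 2254 TPM in replicate 2, with Tbr1 at 42.6 and 47.5 TPM. All 6 markers of striatum were detected as well, at a sum of 464 and 544 TPM. All 8 markers of choroid plexus were higher in replicate 1, at a sum of 557 TPM against 108.4 TPM in replicate 2, most of it Ttr, and the part of this tissue in the levels below was not tested. The human transgenes and the CAST alleles were not separated in the analysed tables.

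Among the ligands, Bdnf (ENSMUSG00000048482.14, chr2:109674700-109727007) was the highest and still lay far below its receptor. Its level was 5.93 TPM in replicate 1, from 589 reads, and 6.63 TPM in replicate 2, from 583 reads. Its mean was 6.28 ± 0.495 TPM (SD, n = 2), and it ranked 9782 of 22028 annotated protein-coding genes by mean level. Ntf3, which encodes NT-3 (ENSMUSG00000049107.13, chr6:126101412-126166910), had 1.24 TPM from 39 reads in replicate 1 and 1.05 TPM from 29 reads in replicate 2. Bdnf was 4.78 times Ntf3 in replicate 1 and 6.31 times Ntf3 in replicate 2, on TPM.

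A further neurotrophin gene, Ntf5, which encodes NT-4, rested on 2 reads in replicate 1 and 1 read in replicate 2, at or under a floor of 3 reads, and no fold is given for it.

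Among the receptors, Ntrk2 (ENSMUSG00000055254.15, chr13:58806569-59133970) was the highest of all 7 genes. Its level was 152 TPM in replicate 1 and 154 TPM in replicate 2, from 22549 and 20257 reads. Its mean was 153 ± 0.856 TPM (SD, n = 2), at rank 464 among coding genes. Ntrk3 (ENSMUSG00000059146.12, chr7:78175959-78738012) had 54.4 TPM in replicate 1 and 56.0 TPM in replicate 2, from 7466 and 7546 reads.

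Ntrk2 stood above Ntrk3 by 1.48 log2 units in replicate 1 and 1.45 log2 units in replicate 2, on log2(TPM + 0.1), a gap far larger than the spread of the animals. In TPM this was 2.80-fold and 2.75-fold. Ntrk2 and Ntrk3 also each stood well above their own ligand. Ntrk2 had 25.7 times the TPM of Bdnf in replicate 1 and 23.2 times in replicate 2, and Ntrk3 had 43.9 and 53.3 times the TPM of Ntf3, the second pair resting on few Ntf3 reads. The median level of the 4 receptors Ntrk2, Ntrk3, Ngfr and Sort1 lay above that of the 2 ligands by 4.75 log2 units in replicate 1 and 4.88 in replicate 2. This does not hold for each receptor: Ngfr, at 2.49 and 2.09 TPM, lay below Bdnf, at 5.93 and 6.63 TPM. These are levels of RNA in the whole tissue, in which fewer cells of a type and less RNA per cell cannot be told apart.

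**Figure D1:**
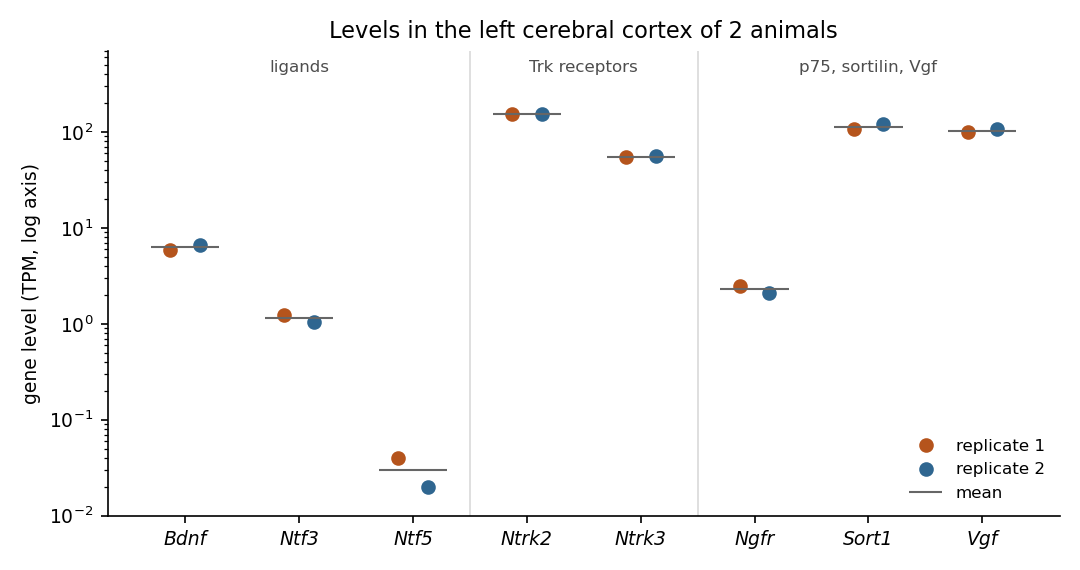
Gene level in TPM, on a log axis, of the 7 genes and of Ntf5. Points are the 2 animals (replicate 1 left of replicate 2) and lines are their means; Ntrk2, Sort1, Vgf and Ntrk3 lie between 54.4 and 154 TPM and the ligands and Ngfr at 6.63 TPM or below.

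The other receptors stood far apart in the order. Ngfr, which encodes p75 (ENSMUSG00000000120.6, chr11:95568818-95587735), had 2.49 TPM from 208 reads in replicate 1 and 2.09 TPM from 156 reads in replicate 2. It has 1 annotated transcript. In the adult forebrain p75 is known mainly from cholinergic neurons of the basal forebrain. Sort1 (ENSMUSG00000068747.14, chr3:108284082-108361511) encodes sortilin, which sorts BDNF into secretory vesicles and is the co-receptor of p75 for proneurotrophins. It had 107 TPM from 17843 reads in replicate 1 and 120 TPM from 17741 reads in replicate 2. Sort1 was 43.0 times Ngfr in replicate 1 and 57.2 times Ngfr in replicate 2.

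Vgf (ENSMUSG00000037428.14, chr5:137026392-137033351), a secretory granule protein whose gene responds to BDNF, had 99.4 TPM in replicate 1 and 106 TPM in replicate 2, from 5161 and 5012 reads. It was 16.8 and 16.1 times the level of Bdnf. The order of mean levels was Ntrk2, Sort1, Vgf, Ntrk3, Bdnf, Ngfr and Ntf3. The neighbours Sort1 (113 ± 8.82 TPM) and Vgf (103 ± 4.98 TPM) did not differ beyond their spread, and each other neighbouring pair did (SD, n = 2 each). In the deposited table with estimated counts, a second quantification of the same libraries, Vgf had 110 and 89.1 TPM and Sort1 107 and 105 TPM, so that their order turned in replicate 1.

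Truncated and full-length transcripts made up similar parts of Ntrk2 RNA, with the truncated ones ahead by TPM and behind by reads. By the deposited percent of the gene's TPM, the 5 transcripts without the kinase held 56.1% in replicate 1 and 54.0% in replicate 2. The mean was 55.0% ± 1.499 (SD, n = 2). The 2 full-length transcripts held 41.8% and 43.7%. In TPM, truncated Ntrk2 stood at 85.5 and 82.9 and full-length Ntrk2 at 63.7 and 67.1, a ratio of 1.34 in replicate 1 and 1.24 in replicate 2.

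Truncated transcripts held 47.6% of Ntrk2 reads in replicate 1 and 45.2% in replicate 2, and full-length transcripts held 52.1% and 54.4%. The mRNAs differ in length, the most abundant full-length one having 8744 bases and the truncated ones 2284 to 6846 bases, so equal numbers of molecules give unequal numbers of reads. The table with estimated counts gave truncated shares of 50.9% and 49.6% of TPM, against full-length shares of 44.4% and 44.5%.

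Among truncated forms, T1 led. Ntrk2-202, with the T1 tail shown above, held 32.6% of Ntrk2 TPM in replicate 1 and 31.3% in replicate 2. Ntrk2-204 has the same coding sequence with other ends, and held 13.6% in replicate 1 and 7.22% in replicate 2. Both T1 transcripts together held 46.1% and 38.5%, and 46.3% and 38.7% in the table with estimated counts. Their summed level was 70.3 TPM in replicate 1 and 59.1 TPM in replicate 2. All 8 markers of choroid plexus were higher in replicate 1, as given above. The astrocyte markers had nearly equal summed levels, 1634 TPM in replicate 1 and 1630 TPM in replicate 2. By scaled reads and a counting interval, described below, 7 of the 8 astrocyte markers were higher in replicate 1. The part of choroid plexus and astrocytes in the T1 difference was not tested.

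Of the remaining 3 truncated transcripts, 2 had a lower share in replicate 1. Ntrk2-205, whose tail of 27 codons is shown above, held 8.93% in replicate 1 and 12.4% in replicate 2, but only 3.40% and 7.74% in the table with estimated counts. Ntrk2-208 held 1.06% and 3.07%, and Ntrk2-209 was listed at 0% in each animal. The sum over all 5 truncated transcripts moved by 2.12 percentage points between the animals, while Ntrk2-204 moved by 6.34 points. Of the 2 full-length transcripts, which share 1 coding sequence of 821 codons, Ntrk2-201 held 28.7% and 29.8% and Ntrk2-207 held 13.03% and 13.8%.

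**Figure D2:**
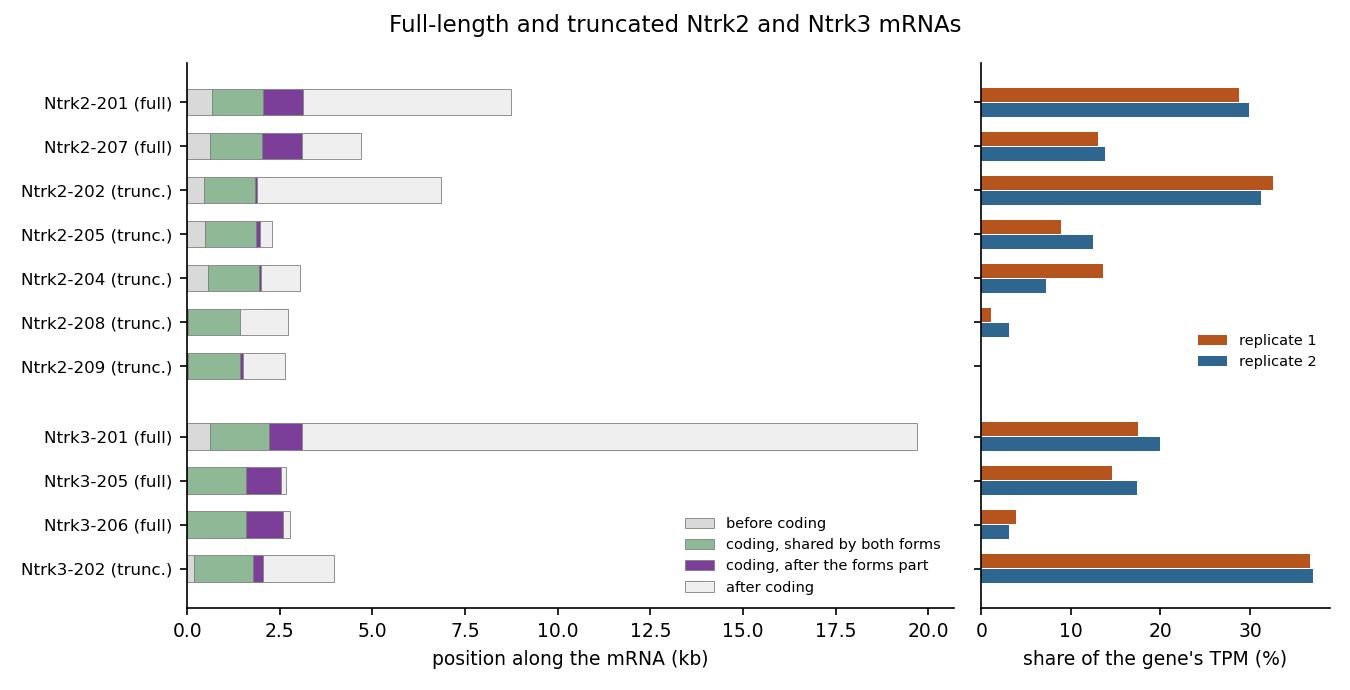
Left, the parts of each complete protein-coding Ntrk2 and Ntrk3 mRNA in kb along the transcript. Right, its share of the gene's TPM in percent in replicate 1 (upper bar) and replicate 2 (lower bar). Ntrk2-202 and Ntrk3-202, which stop soon after the forms part, have the longest bars of their genes, and Ntrk3-201 carries 16600 bases after its coding part.

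Truncated and full-length Ntrk3 RNA were about level by TPM. The truncated class held 41.4% of Ntrk3 TPM in replicate 1 and 37.4% in replicate 2, and the 3 full-length transcripts held 36.05% and 40.5%, so that the order of the classes differed between the animals. In TPM, truncated Ntrk3 stood at 22.6 and 20.9 and full-length Ntrk3 at 19.6 and 22.6. The class of truncated transcripts includes 2 entries annotated as incomplete, one of which, Ntrk3-214, held 4.74% and 0.34%. Without incomplete entries the truncated share was 40.1% in replicate 1 and 38.1% in replicate 2, against 39.4% and 41.6% for full-length transcripts.

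By reads, full-length Ntrk3 was far ahead. Truncated transcripts held 26.2% of Ntrk3 reads in replicate 1 and 23.8% in replicate 2, and full-length ones 71.4% and 73.4%. Ntrk3-201 alone took 62.6% and 64.5% of Ntrk3 reads but only 17.5% and 19.9% of Ntrk3 TPM, since it is 19703 bases long. The table with estimated counts gave truncated shares of 42.2% and 31.6% of TPM, with full-length shares of 36.8% and 29.5%. Truncated Ntrk3 by TPM rested almost wholly on Ntrk3-202, whose 83-codon tail is shown above and which held 36.7% in replicate 1 and 37.1% in replicate 2.

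Transcripts with a kinase insert held much of full-length Ntrk3 by TPM and little by reads. Ntrk3-205, with the 14-codon insert, held 14.6% of Ntrk3 TPM in replicate 1 and 17.4% in replicate 2, from 513 and 560 reads. Ntrk3-206, with the 39-codon insert, held 3.86% and 3.15%. Together they made up 51.3% of full-length Ntrk3 TPM in replicate 1 and 50.8% in replicate 2, and 50.6% and 49.5% in the table with estimated counts. By reads they made up 12.3% of full-length Ntrk3 in replicate 1 and 12.01% in replicate 2. Both annotated transcripts have at most 179 bases after their coding part, against 16600 bases in Ntrk3-201, so among the coding transcripts reads on the long end could be assigned to Ntrk3-201 alone.

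A further 22.5% of Ntrk3 TPM in replicate 1 and 22.1% in replicate 2 lay on transcripts not annotated as protein-coding, against 2.10% and 2.35% for Ntrk2. In the table with estimated counts this was 20.99% in replicate 1 and 38.9% in replicate 2 for Ntrk3, and 4.70% and 5.83% for Ntrk2. By reads it was 2.45% and 2.87% for Ntrk3. Most of the 22.5% and 22.1% was Ntrk3-220, a transcript of 435 bases that overlaps the start of the coding transcripts. It had 15.1% and 12.8% of the TPM from 68.7 and 53.7 reads, and 16.4% and 13.9% in the table with estimated counts. By reads Ntrk3-204, which retains an intron, was ahead of it with 92.9 reads in replicate 1 and 137 in replicate 2. Over protein-coding transcripts alone, the truncated share of Ntrk3 was 53.5% in replicate 1 and 48.02% in replicate 2, and that of Ntrk2 was 57.3% and 55.3%.

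**Figure D3:**
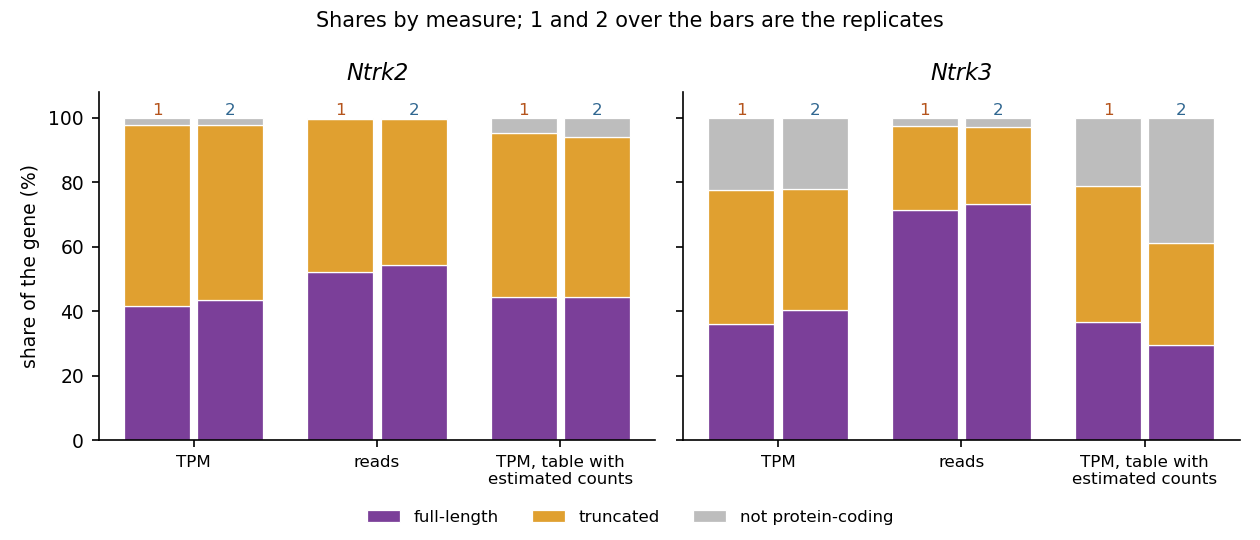
Share of Ntrk2 (left) and Ntrk3 (right) in percent on full-length transcripts, truncated transcripts and those not annotated as protein-coding. Shares are by TPM, by reads, and by TPM in the table with estimated counts. In each pair replicate 1 is left of replicate 2; truncated Ntrk3 falls between 23.8% and 42.2% across the measures, and truncated Ntrk2 between 45.2% and 56.1%.

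Most Bdnf RNA was assigned to 4 of its first exons. Of 11 annotated transcripts in 8 groups of first exons, those starting in exons I, II, IV and VI together held 100% of Bdnf TPM in replicate 1 and 98.6% in replicate 2. Exons are numbered in order along the gene, as is usual for rodent Bdnf. Exon IV, whose promoter is shown above, held 28.4% in replicate 1 and 31.9% in replicate 2. Its mean share, 30.2% ± 2.49 (SD, n = 2), was the highest of the 8 groups.

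Exon VI followed with 26.2% and 30.5%, from 150 and 175 reads. Exon I held 30.8% in replicate 1 and 20.2% in replicate 2, from 190 and 125 reads, with deposited posterior standard deviations of 27.3 and 19.3 reads. Exons IV, VI and I did not differ beyond the spread of the animals, and exon I was the highest of all in replicate 1. Exon II held 14.6% and 15.9%, on splice forms that end the exon at different sites: Bdnf-210 had 11.2% and 6.95%, and Bdnf-207 had 3.38% and 8.98%. The windows ahead of exons II and VI were not used here.

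First exons III and V were listed at 0 reads in each animal. All Bdnf transcripts share 3626 bases, and reads in those bases carry no sign of the first exon and were divided by the authors' model, so that a 0 here is an estimate and not a bound. The posterior mean, another deposited estimate, gave exon III 1.86% in replicate 1, or 9.47 reads, and 1.33% in replicate 2, and exon V 1.72% and 1.32%. By that estimate exons I, II, IV and VI together held 91.4% and 92.6%. In the table with estimated counts exon VI held 23.3% in replicate 1 and 35.2% in replicate 2, and exon IV 31.3% and 28.4%, so the leading exon in replicate 2 there was VI. Transcripts from exon I encode a precursor of 257 codons, against 249 codons from exons II, IV and VI, and the mature neurotrophin lies in the exon they share. A gene on the opposite strand, Gm45346, overlaps Bdnf exons (12.7% of Bdnf stretches of 50 bases) at 0.10 and 0.15 TPM. Whether the counting used the strand is not given in the sources used here, so reads of the 2 genes may not be told apart.

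**Figure D4:**
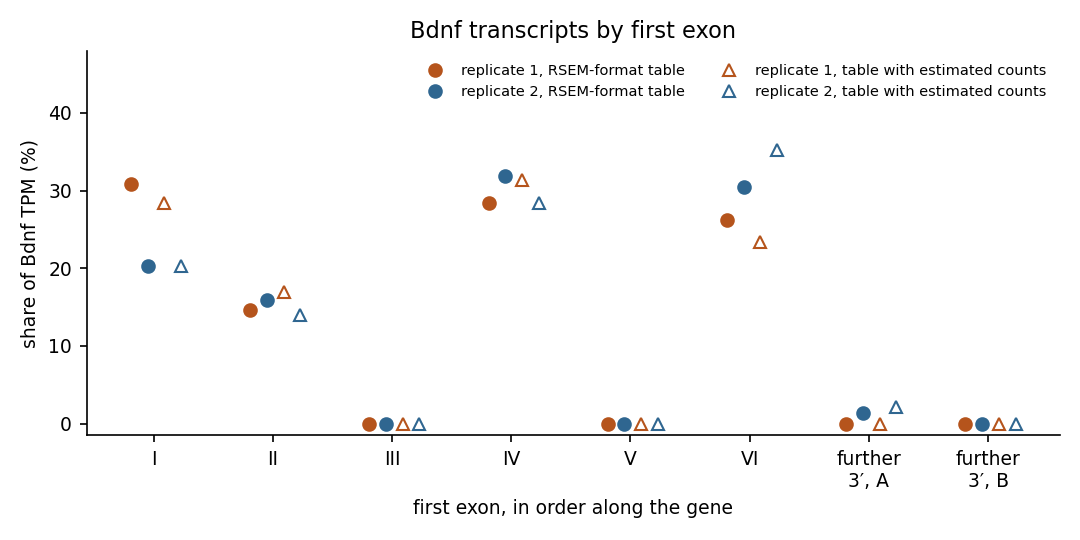
Share of Bdnf TPM in percent by first exon, in order along the gene, in replicate 1 and replicate 2. Circles are the RSEM-format table and triangles the table with estimated counts; exons IV, VI and I lie between 20.2% and 35.2% and exon II between 13.99% and 16.96%, with exons III and V at 0.

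Sort1 was made mainly as its shorter coding form. The longer form, Sort1-203, includes an extra exon that lies ahead of the membrane-spanning part and is known to be held back by the RNA-binding protein TDP-43. Capitals mark this exon of 99 bases, or 33 codons, between 12 bases on each side (plus strand, mm10).
Sort1-203, extra exon, chr3:108355472-108355570: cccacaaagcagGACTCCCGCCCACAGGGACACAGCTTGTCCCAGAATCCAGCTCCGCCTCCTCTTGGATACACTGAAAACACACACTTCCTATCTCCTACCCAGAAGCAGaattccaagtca

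Of both coding Sort1 transcripts, the one with this exon held 13.7% of TPM in replicate 1 and 12.04% in replicate 2, and 18.3% and 16.5% in the table with estimated counts. In TPM, Sort1-203 stood at 14.5 and 14.0 and Sort1-201, without the exon, at 90.9 and 102. An antisense gene, Gm12523, overlaps Sort1 exons at 0.32 and 0.09 TPM.

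For Vgf and Ntf3 the deposited tables split the transcripts differently, and no form is put forward. Vgf-201 held 74.4% of Vgf TPM in replicate 1 and 77.0% in replicate 2, but 29.0% and 42.7% in the table with estimated counts. There Vgf-204, with the same coding length and another 5′ end, held 36.9% and 38.5%, against 5.83% and 4.86% in the first table. An entry annotated as incomplete, Vgf-203, held 19.7% and 17.9%. Ntf3-203 held 90.6% and 100% of Ntf3, against 0% and 100% in the table with estimated counts, on 39 and 29 reads for the whole gene.

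The 7 genes were also compared between the animals. Ratios were taken of reads scaled by TMM, as log2 of replicate 1 over replicate 2, and ran from -0.05 to 0.39. Their median absolute value was 0.05, against 0.13 over 19484 genes with at least 10 reads in 1 library. Counting error widens ratios at few reads, so these medians are not matched in depth. A gene counted as different at a ratio of at least 2-fold with a counting interval, at an error of 0.1%, that excluded equal levels. None of the 7 met this (0 of 7), against 1.22% of all genes in either direction, 0.647% higher in replicate 1 and 0.570% lower. At so low a share, 0 of 7 carries little information. With 1 animal on each side, the rule compares libraries. The intervals cover counting error only: the labels name no molecular identifiers, so copies made by amplification would count as separate reads.

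Without the demand on size, the counting interval excluded equal levels for 1 of 7 genes, Ntrk2, against 8.76% of all genes in either direction, 4.51% higher in replicate 1 and 4.25% lower. Its log2 ratio was 0.12 with a 95% interval of 0.09 to 0.15, from 22549 reads in replicate 1 and 20257 in replicate 2. Its TPM went the other way by under 1%, at 152 in replicate 1 and 154 in replicate 2, a measure with another denominator than TMM-scaled reads. Astrocyte markers, 7 of 8, were higher in replicate 1 by the same interval, against the 4.51% of all genes, with a median log2 ratio of 0.14 on TMM-scaled reads; their summed TPM, given above, was nearly equal. So were 5 of 7 oligodendrocyte markers (summed level 1543 TPM in replicate 1 and 1523 TPM in replicate 2) and 3 of 6 microglia markers (284 and 262 TPM). No marker of these lists was at 0, and the part of these cells in the Ntrk2 ratio was not tested. The median log2 ratio was above 0 in other cell and tissue lists too, and highest for choroid plexus (1.86), ependyma (0.57) and hippocampus (0.31). Other lists above 0 included endothelium (0.20), mural cells (0.13), inhibitory neurons (0.10) and oligodendrocyte precursors (0.09). The median was below 0 for excitatory neurons (-0.03) and striatum (-0.05). The interval narrows with reads, and all genes include some with as few as 10 reads, so the 4.51% is not matched to these markers in depth.

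The other ratios were within counting error or close to it. Bdnf had a log2 ratio of -0.02 (95% interval -0.19 to 0.15), and Vgf of 0.01 (-0.05 to 0.06). Ngfr had 0.38 (0.07 to 0.69) and Ntf3 0.39 (-0.34 to 1.14), both with few reads, while Sort1 had -0.03 (-0.06 to 0.004) and Ntrk3 -0.05 (-0.10 to -0.003). The intervals of Ngfr and Ntrk3 thus excluded equal levels at 95% but not at the error of 0.1% used above.

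Several immediate early genes, which neurons switch on within minutes of activity, were lower in replicate 1, while the ratio of Bdnf was close to 0. Of 16 such genes, 4 were called and all 4 were lower in replicate 1, against 0.570% of all genes called in that direction. By the counting interval alone, 10 were lower and 1 was higher in replicate 1, and the median log2 ratio of the list was -0.54. Fos, a transcription factor, had 5.30 TPM in replicate 1 and 14.7 TPM in replicate 2, a log2 ratio of -1.52. Nr4a1, a nuclear receptor, had 15.2 and 43.0 TPM, Arc, a synaptic protein, 22.1 and 53.9 TPM, and Egr2, a transcription factor, 1.27 and 3.45 TPM. Homer1, the highest of the list, had 75.8 and 83.0 TPM and a log2 ratio near 0, and Egr1 had 35.9 and 70.0 TPM, short of a 2-fold ratio. Egr3 went the other way, with 44.4 TPM in replicate 1 and 41.1 TPM in replicate 2, a log2 ratio of 0.17 (0.09 to 0.24). The promoter of Bdnf first exon IV is the one best known for a response to activity. That exon held 1.68 TPM in replicate 1 and 2.12 TPM in replicate 2, and exon I 1.83 and 1.34 TPM. In the table with estimated counts exon IV was higher in replicate 1, at 1.83 TPM against 1.63 TPM in replicate 2, and the posterior standard deviations of its reads, 31.4 on 162 reads and 24.2 on 182 reads, exceed the difference. Whether these moved with the immediate early genes was not tested.

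**Figure D5:**
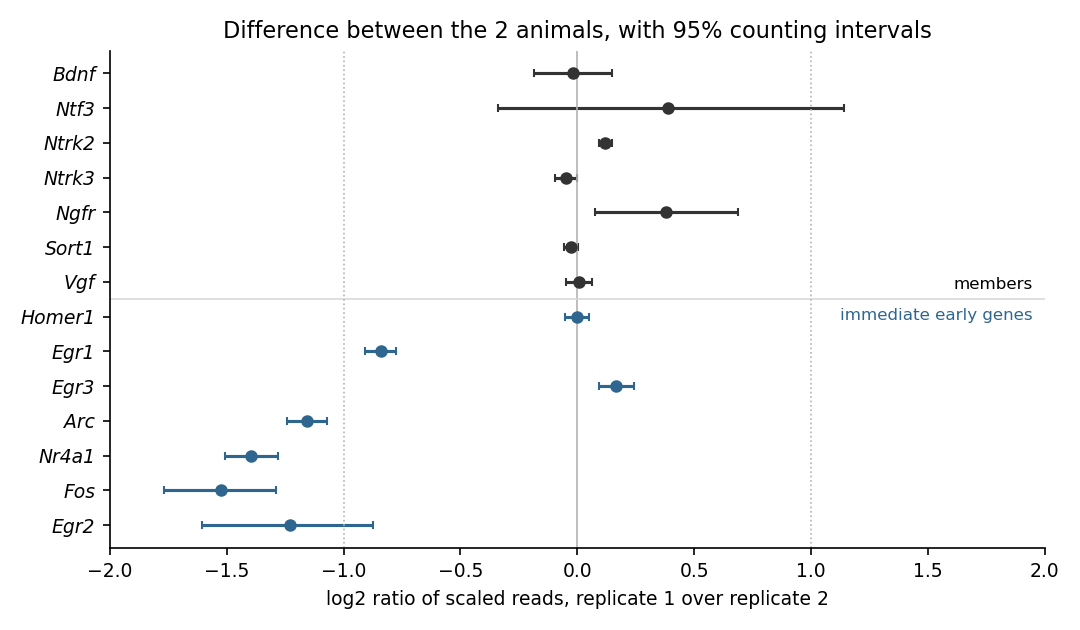
Log2 ratio of TMM-scaled reads, replicate 1 over replicate 2, with 95% counting intervals, for the 7 genes (top) and the named immediate early genes (bottom). Dotted lines mark a 2-fold ratio; the 7 genes lie between -0.05 and 0.39 and Arc, Nr4a1, Fos and Egr2 between -1.52 and -1.16.

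Most genes around the pathway were detected, and none of those in the 6 lists below was called different, against 1.22% of all genes. With so low a share, an absence of calls in lists of this size carries little information. Of 11 other neurotrophins and receptors, 10 were detected and none was called, led by Lingo1, a partner of p75 in the receptor for myelin inhibitors, at 150 and 158 TPM in replicates 1 and 2. Kidins220, a scaffold that binds Trk receptors, had 126 and 150 TPM, and Sorl1, a sorting receptor related to sortilin, 57.0 and 65.9 TPM. Of 16 genes that process neurotrophins, 11 were detected and none was called. Cpe, the carboxypeptidase that is also a sorting receptor for proBDNF, had 908 and 914 TPM, Pcsk2, a prohormone convertase, 103 and 119 TPM, and Serpini1, an inhibitor of tissue plasminogen activator, 98.2 and 115 TPM.

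Downstream of the receptors, all 36 adaptors and effectors of Trk signalling were detected and none was called. By the counting interval alone, 4 of them were higher in replicate 1 and 0 were lower, against 4.51% and 4.25% of all genes. Map2k1, a kinase of the Ras pathway, had 119 TPM in replicate 1 and 129 TPM in replicate 2, and Hras, a Ras protein, had 102 and 116 TPM. For p75, all 10 partners found in the tables were detected and none was called, led by Maged1 at 187 and 201 TPM and Bex3 at 135 and 143 TPM, both adaptors that bind p75, and Arhgdia at 136 and 141 TPM. Of 19 regulators of Bdnf transcription, 18 were detected and none was called. By the counting interval alone, 5 of the 19 were lower in replicate 1 and 0 were higher, against 4.25% and 4.51% of all genes, and the median log2 ratio of the list was -0.08. Mef2c and Mef2d, activity-linked transcription factors, had 217 and 250 TPM and 78.2 and 91.0 TPM, and Crtc1, a coactivator of CREB, 52.2 and 58.6 TPM. The candidate receptors of Vgf peptides were C1qbp, at 44.3 and 46.7 TPM, and C3ar1, a complement receptor of microglia, at 2.19 and 1.88 TPM.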

How the data were processed

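Total RNA of 2 cortical samples of 1 group was measured in ribosomal RNA-depleted, directional libraries, per the labels' protocols. The authors deposited, per library, gene and transcript tables with expected counts, TPM and the percent of the gene's TPM on each transcript, with headers as RSEM writes, and a transcript table with estimated counts and TPM, with a header as kallisto writes. Per the deposited text description, build mm10 and annotation M21 were used; for the aligner, the program versions and the strand setting, nothing is given in the sources used here. The denominator of the deposited TPM takes in abundant short RNAs and added control RNAs. Deposited posterior standard deviations of a count are quoted as such.

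Here, expected counts were rounded and scaled by TMM (edgeR 4.0.16) or, as an alternative, DESeq2 1.42.0 size factors, with 0.5 reads added for ratios. Intervals are Clopper-Pearson intervals (scipy 1.17.1) of the split of reads. The depth of 33925198 and 32380299 gene reads sets their width, and a floor of 3 reads was used for the lowest gene counts. The counting rule was tested on simulated counts that held counting error and set changes only. With no variation between animals in the simulation, that test cannot tell how the rule behaves under such variation. Transcripts of Ntrk2 and Ntrk3 were called truncated where a protein-coding transcript does not reach the last coding exon of the longest one. Named were the 7 genes, their transcripts with a mean share of at least 5% (others only where a class sum needs them), and, of each gene list, the 3 highest genes and any called one; a few genes under this rule are not reported here. The genes and the lists were chosen with earlier results of these data known. No contrast between groups was possible, and alternatives are given in the closing section. Stretches of 50 bases were compared with all other transcripts: at most 0.824% of those of any of the 7 genes occurred on the same strand in another gene.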

Additional observations from a re-analysis of the deposited data

How the results depend on the processing

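Of 97 alternative values, 78 stayed within the spread of the animals and 19 moved beyond it. The spread was the SD, for ratios their 95% interval, and for counts a factor of 1.5. Values with 1 library left out lie within the SD of the same 2 libraries by construction, so they could not move. Changing the filter on reads left out or added none of the 7 genes, so those values could not move either. Every annotated Bdnf transcript is protein-coding and complete, so limiting the share of exon IV to such transcripts could not move it. The rescaling to nuclear protein-coding genes changes all levels of a library together, so it could hardly move the gap of Ntrk2 over Ntrk3. The ratio of Vgf between the animals, 0.01 and not called, changed sign to -0.02 with total counts; no other ratio of a single gene changed sign. The order of truncated and full-length Ntrk2 turned by reads. The truncated share of Ntrk2, 55.0%, became 50.3% in the table with estimated counts and 46.4% by reads. That of Ntrk3, 39.4%, became 25.0% by reads and 50.7% over protein-coding transcripts. The share of Bdnf exon IV, 30.2%, became 26.6% from posterior means, an alternative chosen after seeing the data, as was leaving out incomplete entries. The gap of Ntrk2 over Ntrk3, 1.47 log2 units, became 1.26 in the table with estimated counts, and that of receptors over ligands, 4.81, became 4.34 on log2(TPM + 1). The count of genes whose counting interval excluded equal levels, 1, became 3 (Ntrk2, Ntrk3 and Sort1) with total counts in place of TMM. The count of different genes was 0 under all 4 alternatives. Of 28 alternative levels of single genes 9 moved, 7 of them by the rescaling to nuclear protein-coding genes, which raises all levels together, and of 28 alternative ratios 2 moved. With 1 library left out, the shares ran from 54.0% to 56.1% (Ntrk2), 37.4% to 41.4% (Ntrk3) and 28.4% to 31.9% (Bdnf exon IV), and the gaps from 1.45 to 1.48 and from 4.75 to 4.88. The counts between animals have no value with 1 library left out. The causes were not tested. No paired analysis was possible because both samples belong to 1 group. Depth limits Ntf3 and Ngfr, and with 2 animals an SD is itself uncertain.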
